A study of Arabidopsis thaliana with 4 samples.

Results

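The 5 genes described here encode enzymes of early tetrapyrrole synthesis in Arabidopsis thaliana: HEMA2 (AT1G09940), GSA1 (AT5G63570), HEMB1 (AT1G69740), HEME1 (AT3G14930) and HEME2 (AT2G40490). They were chosen by their place in the pathway, the steps from glutamyl-tRNA to coproporphyrinogen, with earlier results of these data known. Each had 1 probe set that the platform annotation assigned to it alone. Thus 5 of the 13286 genes named on the array were members, and all 5 passed the filter on low signals. HEMA3 and HEMB2, also listed for these steps and with a probe set of their own, were not members and did not pass that filter. The data came from etiolated seedlings, taken whole after 4 days, of wild type (Col-0) and of the double mutant ein3-1eil1-1, called ein3 eil1 from here on, which carries the alleles ein3-1 and eil1-1. Both genes encode transcription factors that act in ethylene signalling. Seeds of both genotypes were kept cold for 3 days, given light for 4 hours and then grown at 22 °C for 4 days in darkness. RNA was hybridised to Affymetrix ATH1 arrays, 2 per genotype, and the labels describe no treatment other than darkness. They also state that etiolated mutant seedlings hold much more protochlorophyllide than wild type. The comparison asks whether transcripts of the enzymes that feed this precursor differ between the genotypes.

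Heme and chlorophyll are ring-shaped tetrapyrroles made in plastids. Glutamate bound to its tRNA is reduced and rearranged to 5-aminolevulinate, which is the controlled entry step. Molecules of 5-aminolevulinate are joined into porphobilinogen and then into uroporphyrinogen, which is trimmed to coproporphyrinogen. From there the pathway leads to protoporphyrin and splits into heme and chlorophyll, while siroheme leaves it earlier. In darkness angiosperm seedlings stop at protochlorophyllide, because its reduction needs light. The protein FLU then restrains glutamyl-tRNA reductase. Which isoforms of that enzyme FLU acts on was not examined here, and the FLU gene was not analysed.

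Of the labelled genotype only the ein3 part was checked, on EIN3 itself. Its deposited signal, a linear MAS5 intensity, was 765.9 and 992.3 in wild type, against 76.7 and 221.2 in ein3 eil1. After normalisation the log2 difference, mutant minus wild type, was -3.12 (SE 0.35, limma adjusted p = 0.014). Where this probe set lies relative to the lesion of ein3-1 was not examined, and EIL1 was not checked. The 4 arrays did not share a scale. The wild-type arrays had median deposited signals of 49.5 and 52.3, the mutant arrays of 50.8 and 85.2, so ein3 eil1 replicate 2 was the brightest array. The arrays also fell into 2 pairs of 1 wild-type and 1 mutant array each by the level of added Bacillus control RNAs (in normalised signals a log2 gap of -1.72 between the pairs against at most 0.075 inside one, in deposited signals -1.38 against at most 0.82). Pair 1 holds replicate 1 of each genotype and pair 2 the arrays titled as biological replicates. Of 10 markers of organs and stage, 5 had a named probe set. PORB, a protochlorophyllide oxidoreductase typical of etiolated plastids, had signals from 2207 to 7629, and the root gene PYK10 from 8003 to 13741. LHCB4.1, listed as a marker of light-grown photosynthetic tissue, was also bright, with signals from 5631.2 to 11431.5. The levels of these markers therefore do not show the stage by themselves. The differences of PYK10 (-0.01), of the reserve mobilisation gene ICL (-0.02), of the stomatal lineage gene SPCH (-0.24) and of the antenna protein gene LHCB4.1 (0.12) had limma adjusted p values of 0.9997. All of these genes had opposite signs in pairs 1 and 2, with wide swings for ICL (-0.45 and 0.41) and SPCH (-1.25 and 0.78). SPCH was also dim, with signals from 14.5 to 63.9. These means near 0 therefore do not show that stage or composition was matched. PORB differed by -1.13, with both mutant arrays below both wild-type arrays (limma adjusted p = 0.42, and 0.0037 with the array pair as a block), in the same direction as the normalised means of the 5 members. The part of tissue composition in the results below was not tested. In whole seedlings, fewer cells of a type and less RNA per cell cannot be told apart. Nothing in the labels says whether the plants of each array were grown apart, so p values measure the spread between these arrays, which may be technical.

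None of the 5 genes passed the test between genotypes, although the normalised mean was lower in the mutant for each. The normalised log2 differences were -0.48 for HEMA2, -0.14 for GSA1, -0.43 for HEMB1, -0.52 for HEME1 and -0.56 for HEME2, and that of GSA1 turned to 0.28 in deposited signals. The median of the 5 was -0.48, against 0.0092 over all 14031 tested probe sets, of which 48.9% had a lower mean in the mutant. With limma's moderated test, adjusted by Benjamini-Hochberg over the 14031 probe sets, 0 of 5 passed the threshold of 0.05, where 0.292% of all tested probe sets did (0.214% as lower in the mutant). At an unadjusted p under 0.05 the count was also 0, where 6.14% of all tested probe sets lay. The adjusted p values of the 5 ran from 0.96 to 0.9997. Values are given for n = 2 arrays per genotype throughout, and the exact permutation test on 2 against 2 arrays cannot give a two-sided p below 0.333.

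**Figure D1:**
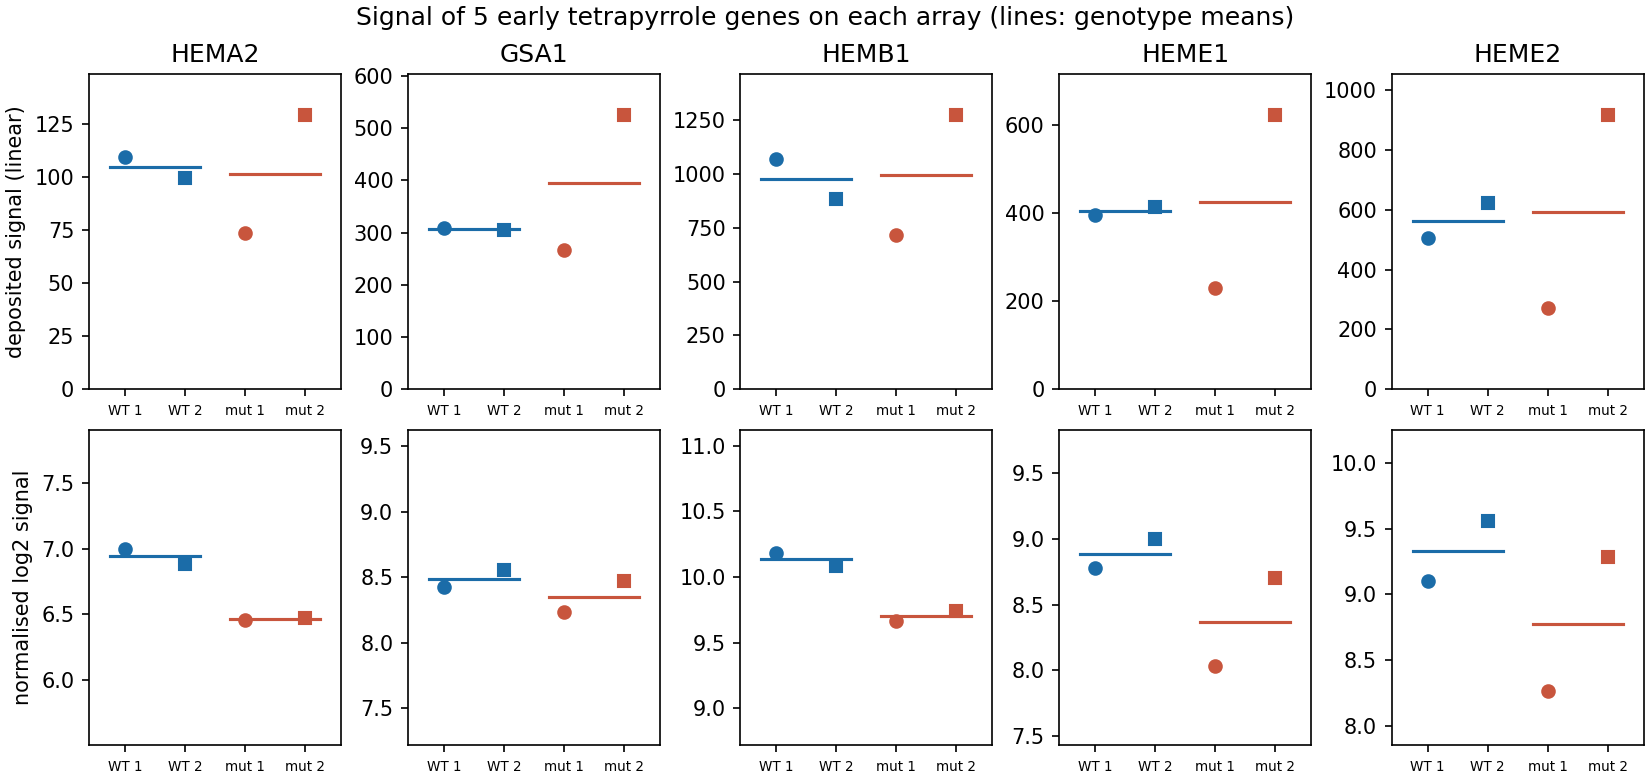
Signals of the 5 genes on each array, with deposited linear intensities above and normalised log2 signals below (blue, wild type; red, ein3 eil1; circles, replicate 1; squares, replicate 2; lines, genotype means). In deposited signals the 2 mutant arrays lie on either side of wild type for every gene, and after normalisation both mutant points of HEMA2 and HEMB1 lie together below wild type.

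HEMA2 encodes an isoform of glutamyl-tRNA reductase, the enzyme that commits glutamate to tetrapyrroles. Its deposited signals were 109.4 and 99.8 in wild type, against 73.8 and 129.2 in ein3 eil1. One mutant array thus lay below both wild-type arrays and the other above them. After normalisation the log2 signals were 7.00 and 6.88 in wild type, against 6.46 and 6.47 in the mutant. Here the groups did not overlap, and the mutant arrays were closer to each other (a gap of 0.01) than the wild-type arrays (0.12). In position among all probe sets of an array, which does not depend on a scale factor, HEMA2 stood at percentiles 66.7 and 64.9 in wild type, against 58.1 and 58.3 in the mutant. Its log2 difference of -0.48 corresponds to 0.717 of the wild-type level, with an SE of 0.27 and a 95% interval from -1.11 to 0.15 (limma adjusted p = 0.96).

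GSA1 encodes glutamate-1-semialdehyde aminotransferase, which makes 5-aminolevulinate from the product of glutamyl-tRNA reductase. Its deposited signals of 307.9 and 304.8 in wild type differed little, and those of the mutant were 266.3 and 524.5. The normalised log2 signals were 8.42 and 8.55 in wild type, against 8.23 and 8.47 in the mutant. These groups overlapped, since ein3 eil1 replicate 2 lay between the wild-type arrays. GSA1 had the smallest normalised difference of the 5, -0.14 (SE 0.28, limma adjusted p = 0.9997). Its 95% interval ran from -0.79 to 0.51, that is from 0.578 to 1.43 of the wild-type level.

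HEMB1 encodes 5-aminolevulinate dehydratase, which joins 5-aminolevulinate into porphobilinogen. Deposited signals were 1070.1 and 885.6 in wild type, against 716.5 and 1273.0 in the mutant, again on either side. The normalised log2 signals were 10.18 and 10.09 in wild type, against 9.66 and 9.74 in the mutant. Both mutant arrays lay below both wild-type arrays, by more than the gap between arrays of either genotype (0.10 and 0.08). HEMB1 stood at percentiles 95.8 and 95.5 in wild type, against 93.9 and 94.2 in the mutant. The log2 difference was -0.43 (SE 0.26, 95% interval from -1.04 to 0.17, limma adjusted p = 0.99), or 0.740 of the wild-type level.

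HEME1 and HEME2 both encode uroporphyrinogen decarboxylase, the enzyme that makes coproporphyrinogen. HEME1 had deposited signals of 395.8 and 414.5 in wild type, against 230.0 and 622.8 in ein3 eil1. HEME2 had 504.7 and 623.7 in wild type, against 271.3 and 916.4 in ein3 eil1. In both genes ein3 eil1 replicate 1 was the lowest array and ein3 eil1 replicate 2 the highest.

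After normalisation HEME1 had log2 signals of 8.78 and 9.00 in wild type, against 8.04 and 8.70 in the mutant. The groups did not overlap, but the upper mutant array lay only slightly below the lower wild-type array. HEME2 had 9.10 and 9.56 in wild type, against 8.26 and 9.28 in the mutant, where the groups overlapped. The log2 difference was -0.52 for HEME1 (SE 0.33, 95% interval from -1.27 to 0.23, limma adjusted p = 0.99). For HEME2 it was -0.56 (SE 0.39, 95% interval from -1.45 to 0.33, limma adjusted p = 0.9997).

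The members differed in how well the 2 mutant arrays repeated each other. In normalised log2 signals the 2 mutant arrays differed by 1.02 for HEME2 and by 0.67 for HEME1, and the wild-type arrays by 0.46 and 0.23. For comparison, the median absolute gap over all tested probe sets was 0.33 between the mutant arrays and 0.37 between the wild-type arrays. The mutant gap of HEME2 was larger than that of 93.9% of tested probe sets and the gap of HEME1 larger than that of 81.5%. For HEMA2 the share was 2.15% and for HEMB1 12.4%. The pair of decarboxylase genes was therefore the least repeatable of the 5 in the mutant, and HEMA2 and HEMB1 the most. In deposited signals ein3 eil1 replicate 2 exceeded replicate 1 by 3.38 times for HEME2, 2.71 times for HEME1, 1.97 times for GSA1, 1.78 times for HEMB1 and 1.75 times for HEMA2. Over all tested probe sets the median log2 difference between these arrays was 0.71, against 1.74 for HEME2 and 0.78 for HEMA2. In deposited signals ein3 eil1 replicate 1 was the lowest and ein3 eil1 replicate 2 the highest array in all 5 genes, an order found in 23% of tested probe sets. After normalisation ein3 eil1 replicate 1 was still the lowest array in all 5, which held for 22.7% of tested probe sets.

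**Figure D2:**
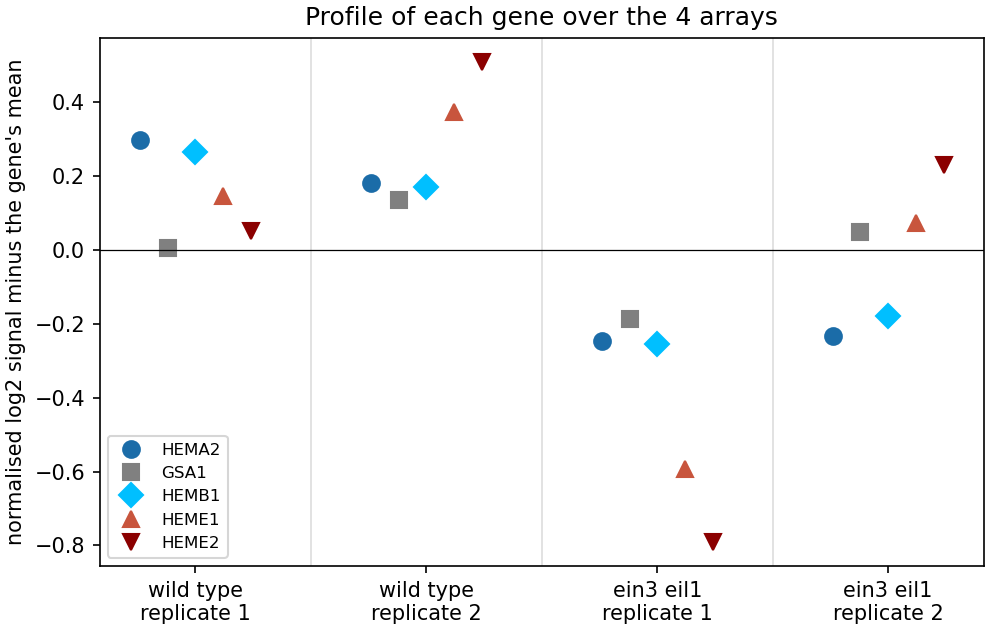
Normalised log2 signal of each gene minus its own mean, by array. HEMA2 and HEMB1 have nearly the same values on every array, while HEME1 and HEME2 reach below -0.5 on ein3 eil1 replicate 1 alone.

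Over the arrays HEMA2 varied with HEMB1, and HEME1 with HEME2. Likeness was measured as the root mean square distance between normalised log2 profiles over the 4 arrays, each centred on its own mean. It is a description, since each profile rests on only 4 arrays that were normalised together. HEMA2 and HEMB1 lay 0.032 apart, the closest of all pairs of the 5. HEME1 and HEME2 lay 0.151 apart. The largest distance was 0.412, between HEMA2 and HEME2. GSA1 lay 0.177 from HEMB1, 0.207 from HEMA2 and 0.246 from HEME1. Among the 10 other pathway genes with tested probe sets, the nearest to HEMA2 and HEMB1 were each other, and the nearest to HEME2 was HEME1. HEME1 itself lay nearer to CHLP (0.105), the geranylgeranyl reductase gene, and GSA1 lay nearest to SIRB (0.076), which encodes the ferrochelatase of siroheme.

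Among all other named genes tested, those most like each member are known here by locus identifier except IQD19. AT5G63040 (0.032) and AT3G25805 (0.033) were the nearest to HEMA2, and the same pair in the other order was nearest to HEMB1 (AT3G25805, 0.017; AT5G63040, 0.026). AT4G33670 and AT5G19540 were nearest to GSA1 (0.019 and 0.020). HEME1 had AT1G33170 (0.042) and IQD19 (0.048), and HEME2 had AT2G04039 (0.038) and AT1G32160 (0.046). The 8 genes were picked from 7502 named probe sets because their profiles resemble those of the members. Their differences therefore follow from that choice and add nothing to those of the members. They ran from -0.56 (AT1G33170) to -0.13 (AT5G19540) in log2, and none passed the test between genotypes (limma adjusted p from 0.96 to 0.9997).

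Differences within each array pair had the same sign in both pairs for all 5 genes after normalisation, where 27.4% of tested probe sets were lower in both pairs. HEME2 differed by -0.84 in pair 1 and by -0.28 in pair 2, and HEME1 by -0.74 and -0.30. HEMA2 differed by -0.54 and -0.41, HEMB1 by -0.52 and -0.35, and GSA1 by -0.19 and -0.09. The difference was larger in pair 1 for each gene. Both mutant arrays lay below both wild-type arrays for HEMA2, HEMB1 and HEME1, 3 of 5, where 15.1% of tested probe sets did. With the array pair as a block in the limma fit, 0 of 5 passed after adjustment (2.79% of all tested probe sets passed). The blocked adjusted p was 0.32 for HEME2, 0.36 for HEME1, 0.41 for HEMA2, 0.44 for HEMB1 and 0.89 for GSA1. Before adjustment, 2 of 5, HEME1 and HEME2, were under 0.05 in the blocked limma fit, where 13.3% of all tested probe sets were.

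**Figure D3:**
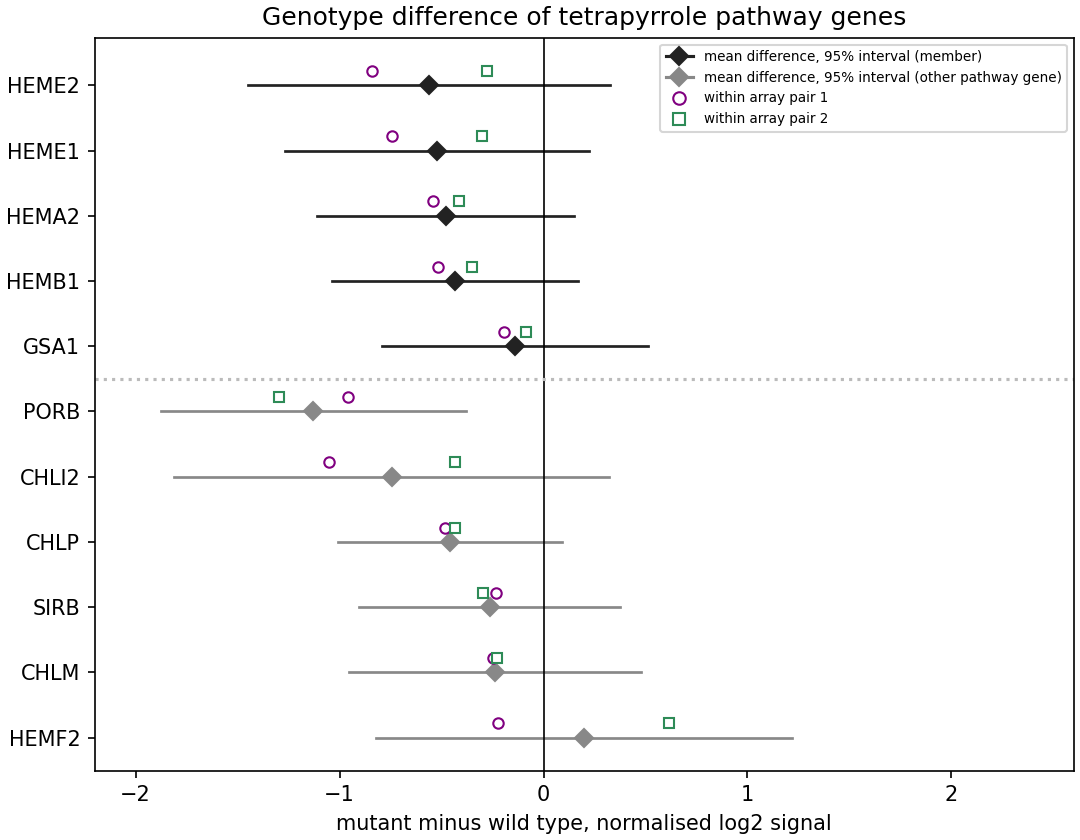
Log2 difference, mutant minus wild type, for the 5 members (black, above the dotted line) and the 6 other tested pathway genes (grey), with 95% intervals from limma (n = 2 per genotype) and the difference within array pair 1 (circles) and pair 2 (squares). The intervals of all 5 members span 0, and that of PORB does not.

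For the decarboxylase genes the size depended on which mutant array was kept. With 2 mutant arrays, leaving out one or the other shifts the difference equally in opposite directions, so neither array is singled out. Without ein3 eil1 replicate 1 the difference was -0.05 for HEME2 and -0.19 for HEME1. Without ein3 eil1 replicate 2 it was -1.07 for HEME2 and -0.85 for HEME1. HEME2 also moved when a wild-type array was left out (-0.79 without replicate 1, -0.33 without replicate 2), and so did HEME1 (-0.63 and -0.41 in that order). GSA1 ran from -0.26 to -0.02. HEMA2 stayed between -0.54 and -0.42 and HEMB1 between -0.48 and -0.39 without 1 array in turn. The median of the 5 was -0.19 without ein3 eil1 replicate 1. None of these fits called a member at an adjusted p under 0.05.

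The scaling between arrays also moved the values. In deposited signals on the log2 scale the differences were -0.09 for HEMA2, 0.28 for GSA1, -0.03 for HEMB1, -0.10 for HEME1 and -0.17 for HEME2. The median over all tested probe sets was then 0.40, so all 5 lay below it, and the median of the 5 relative to it was -0.49. Under that scaling the mutant arrays spanned both wild-type arrays in every member. The lower means in the mutant thus refer to the normalised signal, relative to the other transcripts on the array.

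**Figure D4:**
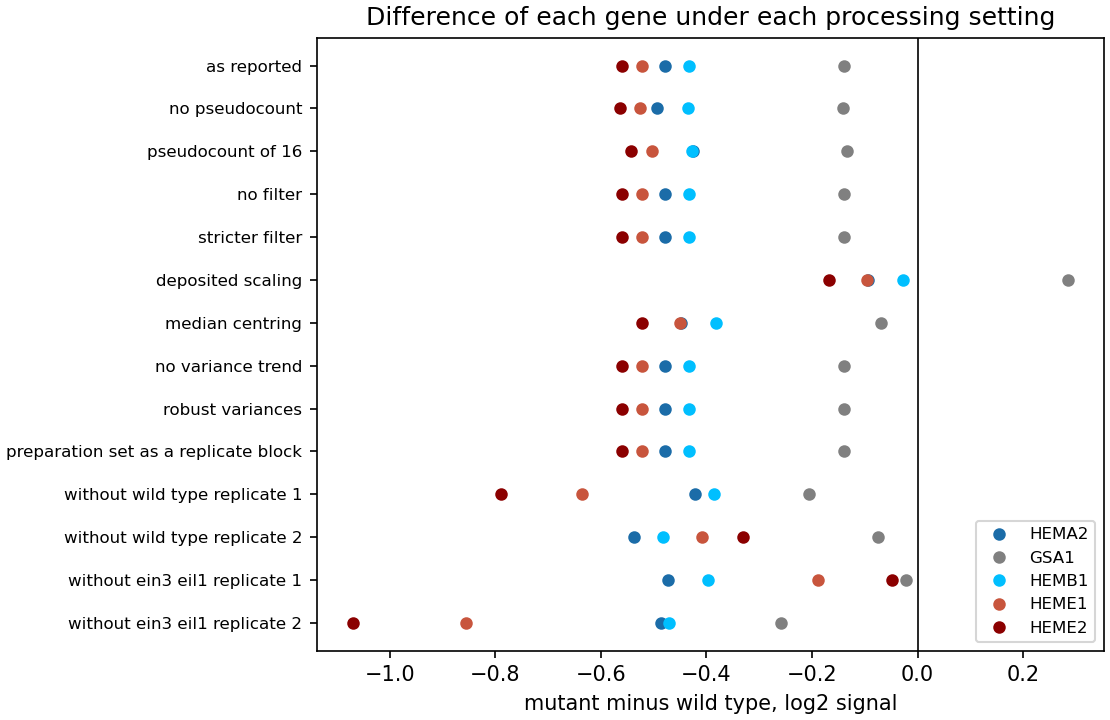
Log2 difference, mutant minus wild type, of each gene as reported and under the 13 alternative settings. HEMA2 and HEMB1 move mainly with the deposited scaling, HEME1 and HEME2 also with the array left out, and GSA1 crosses 0 under the deposited scaling. The setting marked as preparation set is the array pair, and the sample labels name no preparation.

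Ratios between 2 members within an array do not depend on a scale factor per array. Of the 10 ratios of deposited signals, 3 had both mutant arrays on one side of both wild-type arrays, where 33.3% of unchanged ratios would. All 3 involved GSA1. This order alone has a two-sided exact permutation p of 0.333, the smallest possible. The share of 33.3% holds only if the 4 arrays are exchangeable, and the 10 ratios share the same 5 genes. The count of 3 is therefore a description and not a test. The log2 ratio of GSA1 over HEMA2 was 1.49 and 1.61 in wild type, against 1.85 and 2.02 in the mutant, a difference of 0.38. The mutant arrays were thus higher by more than the gap within either genotype (0.12 and 0.17). HEMB1 over GSA1 was 1.80 and 1.54 in wild type against 1.43 and 1.28 in the mutant, a difference of -0.31. HEME1 over GSA1 was 0.36 and 0.44 against -0.21 and 0.25, a difference of -0.38. Because the exact permutation p cannot fall below 0.333 with 2 against 2 arrays, it could not have shown a difference between members in their response. Such a difference was not shown here.

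The ratio of the paralogous pair overlapped between the genotypes. HEME2 over HEME1 was 0.35 and 0.59 in wild type, against 0.24 and 0.56 in the mutant, a difference of -0.07 (exact permutation p = 0.667). Within each genotype this ratio was higher in pair 2. HEMB1 over HEMA2 had the smallest range over the 4 arrays, with 3.29 and 3.15 in wild type, against 3.28 and 3.30 in the mutant, a difference of 0.07.

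**Figure D5:**
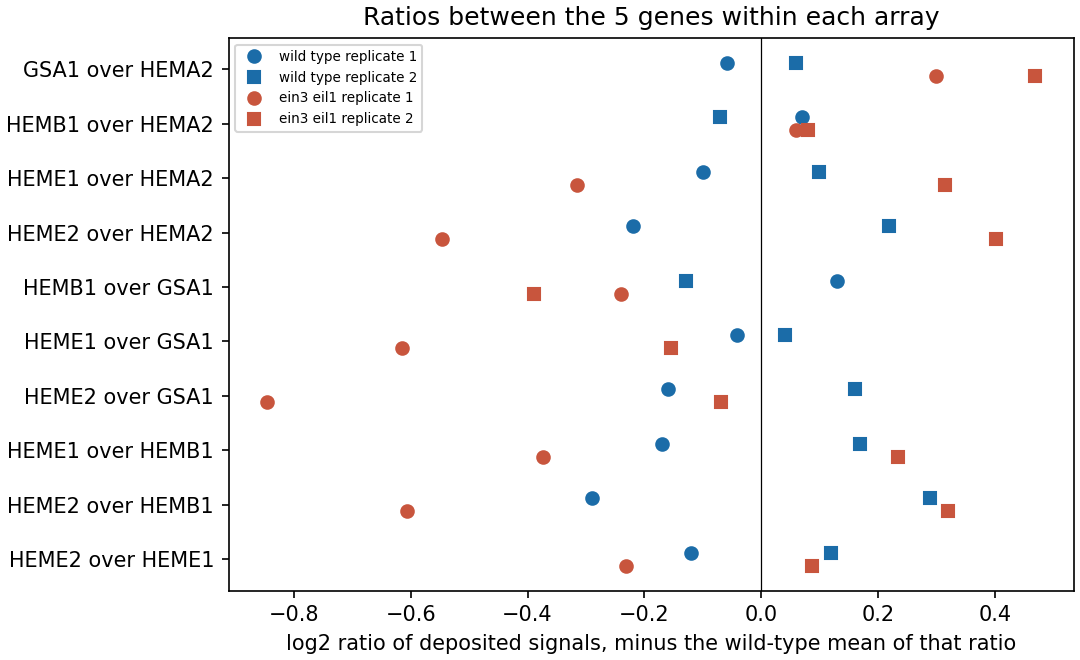
Log2 ratios of deposited signals between members within each array, minus the wild-type mean of the ratio (blue, wild type; red, ein3 eil1; circles, replicate 1; squares, replicate 2). The mutant points leave the wild-type range on the same side for GSA1 over HEMA2, HEMB1 over GSA1 and HEME1 over GSA1.

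The rest of the pathway was measured in part. Of 36 other genes listed for the pathway, 8 had a probe set named for them alone, and 6 of these were tested. None passed in either direction, and 1, PORB, had an unadjusted p under 0.05, where 6.14% of all tested probe sets did. Of the 6, 5 had a lower mean in the mutant, where 48.9% of all tested probe sets did, and the median log2 difference was -0.36. HEMA3, another glutamyl-tRNA reductase gene, had deposited signals from 3.1 to 7.7, and HEMB2, a second 5-aminolevulinate dehydratase gene, from 6.1 to 32.0. Both were below the filter and were not tested. HEMF2, for coproporphyrinogen oxidase, the enzyme after HEME1 and HEME2, was dim, with deposited signals from 26.0 to 61.9. It differed by 0.20 (SE 0.44), with opposite signs in the pairs (-0.22 and 0.62). HEMF1, listed beside it in the pathway, was not analysed here. SIRB differed by -0.26 (SE 0.28).

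Of 14 genes of the chlorophyll branch, 4 were tested. PORB differed by -0.96 in pair 1 and by -1.30 in pair 2, the largest mean difference of the 4 (-1.13, SE 0.33). CHLI2, a magnesium chelatase subunit gene, differed by -0.74 (SE 0.47), CHLP by -0.46 (SE 0.24) and CHLM, a methyltransferase gene, by -0.24 (SE 0.31). CHLI2 resembled HEME2 in its arrays, with log2 differences of -1.05 in pair 1 and -0.44 in pair 2. The differences of the 5 early genes lay within the range of these 4, except that of GSA1. Of the genes listed for the early steps, ERS, HEMA1, GSA2, HEMC and HEMD were not analysed here.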

How the data were processed

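The authors deposited linear intensities, 1 for each probe set on each array. According to the submitters' processing notes these are MAS5 signals. The MAS5 version, scaling target and detection calls are not given in the sources used here. In all the table held 22810 probe sets, 64 of them Affymetrix controls that were left out of the tests. The 2% trimmed means of the arrays ran from 141 to 249, so log2(value + 3) was quantile normalised between arrays. The pseudocount of 3 slightly understates changes of dim probe sets. Tests were limited to the 14031 probe sets at or above the 40th percentile of the array on 2 or more arrays. Genotypes, taken from the titles, were compared by two-sided moderated tests in limma 3.58.1 (R 4.3.3). These used eBayes with trended variances and Benjamini-Hochberg adjustment across the tested probe sets at a threshold of 0.05. The fit was also run on simulated data with independent noise on each array and no array pairs. That run checked only that the mean estimate lay close to the change put in. Intervals are limma's 95% confidence intervals, and the number of arrays limits the precision of every value.

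Genes were assigned by the annotation of the platform, with its gene identifiers matched to RefSeq (TAIR10.1): 13513 paired with 1 gene, of which 13436 matched, 503 with several and 8730 were not listed. The named genes are the members, tested genes of a pathway list, for each member the 2 genes with the most similar profile, and the neighbouring genes in RefSeq order. The members and lists were chosen with earlier results of these data known. Array pairs follow the titles and the 24 Bacillus control probe sets. With only 2 pairs the pair was used as a block in an alternative, and pairing was not otherwise tested. A planned search of promoter motifs was not run, and sequences were not used here. As alternatives, the pseudocount, filter, scaling and variance model were changed, with the array pair as a block and with each array left out. Figures were drawn with matplotlib 3.10.9.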

Additional observations from a re-analysis of the deposited data

How the results depend on the processing

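Across 13 alternatives, 64 of 65 member differences kept their sign and all 65 stayed above the adjusted threshold with limma. The changes of filter and variance model and the replicate block leave the difference itself as it is. Under these settings the sign could not change, so only the other settings bear on it. The exception in sign was GSA1, 0.28 under the deposited scaling. The median of the members moved to -0.093 under that scaling, which raised the median of all tested probe sets to 0.40, and ran from -0.49 to -0.19 without 1 array in turn. The count over all probe sets was 41 (11 higher, 30 lower). It was 14 without a filter, where more probe sets were tested, and 95 under the deposited scaling (59 higher, 36 lower). With median centring it was 72 (23 higher, 49 lower), and with the array pair as a replicate block it was 391 (177 higher, 214 lower). Without 1 array in turn it ran from 107 (52 higher, 55 lower, without wild type replicate 2) to 244 (138 higher, 106 lower, without wild type replicate 1), with 132 and 184 without ein3 eil1 replicates 1 and 2. Of the other pathway genes, 1, PORB, passed with the replicate block and when wild type replicate 1 or ein3 eil1 replicate 2 was left out, and 0 passed when either other array was. The cause of these shifts was not tested. The replicate block changed no call of a member.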

Other observations

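Of the 10 genes that lie next to a member in RefSeq gene order, 2 had a tested probe set annotated to them alone. AT3G14920, beside HEME1, differed by -0.13 (SE 0.36), and AT2G40480, beside HEME2, by -0.03 (SE 0.31), against -0.52 and -0.56 for their neighbours. Neither passed the test (limma adjusted p = 0.9997 for both). The 8 remaining neighbours were not analysed here.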
